A study of Mus musculus with 6 samples.

Results

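The genes described are those of the mouse mitochondrial ribosomal proteins, chosen by symbol alone: every listed symbol made of Mrpl or Mrps, a number and at most 1 letter a, b or c. The rule found 77 of the 16668 genes listed, 48 of the large subunit (Mrpl) and 29 of the small subunit (Mrps), and used no measured value. Subunits are counted by these symbols alone. RNA was sequenced from E14 embryonic stem cells of the mouse strain 129/Ola, wild type by label, at passage 3 to 5, grown without feeder cells in 2i medium with LIF. All cells received siRNA according to the methods of the study, either a control siRNA or one against Ring1B or Dzip3, which are ubiquitin ligases for histone H2A. The 6 libraries were labelled control 1 and 2, Ring1B-KD 1 and 2, and Dzip3-KD 1 and 2, and the study calls each pair biological duplicates of transfected cell populations.

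The names of the deposited lists carry a number and a condition word of their own, and the word differs from the label for 4 of the 6 libraries. Library 1 has the label control 1 and the word control. Library 2 is labelled control 2 but has the word Ring1BKD, and library 3 is labelled Ring1B-KD 1 but has the word Dzip3KD. Library 4 is labelled Ring1B-KD 2 and has the word control, library 5 is labelled Dzip3-KD 1 and has the word Ring1BKD, and library 6 has Dzip3-KD 2 and Dzip3KD. Each number set, 1 to 3 and 4 to 6, therefore holds every word once. Both libraries labelled control fall in the first set, both labelled Dzip3-KD in the second, and those labelled Ring1B-KD in 1 set each.

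The targeted genes followed the labels only in part. *Rnf2*, which encodes Ring1B, stood at 30.6, 20.4, 26.8, 28.8, 19.4 and 28.2 RPKM in libraries 1 to 6 (RPKM, reads scaled to exon length and to the mapped reads of the library). It was lowest in libraries 2 and 5, which share the word Ring1BKD and carry the labels control 2 and Dzip3-KD 1. *Dzip3* stood at 2.24, 2.68, 1.18, 1.89, 1.70 and 1.31 RPKM and was lowest in libraries 3 and 6, which share the word Dzip3KD. Group names below are only those of the labels or the words, and no knockdown is implied by either. Depth recovered from the values was 3015349 to 3583612 mapped reads per library, at which 3 reads on a transcript of 2 kb give 0.419 to 0.497 RPKM. All 8 ES cell markers examined were listed, with a summed level of 1375 to 1800 RPKM. Of 6 fibroblast or feeder markers 4 were listed, with a summed level of 1.18 to 3.10 RPKM, and 6 differentiation markers summed to 3.77 to 4.64 RPKM.

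Mitochondrial ribosomes translate the few mRNAs encoded by mitochondrial DNA, all of which specify subunits of the oxidative phosphorylation complexes. Their ribosomal RNAs are made inside the organelle, whereas every one of their proteins is encoded in the nucleus, translated in the cytosol and imported. Some of these proteins have bacterial counterparts and others are found only in mitochondria. ES cells are known for a strongly glycolytic metabolism while keeping functional mitochondria.

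The family was well expressed, and its range of levels was narrower than that of all genes tested. All 77 members passed the filter of a mean of 0.5 RPKM and were tested, and 76 were above 0 in every library. The median member level over the 6 libraries was 11.5 RPKM, at percentile 84.1 of all listed genes, against a median of 4.68 RPKM for the 11538 genes tested. The large subunit had a median of 11.4 RPKM and the small subunit one of 11.5 RPKM. Levels at the 90th and 10th percentiles of the family, 25.9 and 3.04 RPKM, were 8.53-fold apart. That span was 24.0-fold for all genes tested, 18.6-fold for 78 nuclear genes of oxidative phosphorylation subunits (median 17.9 RPKM) and 73.4-fold for 80 cytosolic ribosomal protein genes (median 26.9 RPKM). It was 6.25-fold for 25 mitoribosome assembly factors and rRNA modifiers, 8.71-fold for 15 translation factors and 14.0-fold for 22 mitochondrial aminoacyl-tRNA synthetases. For 6 mitoribosomal proteins with other symbols it was 6.28-fold, and for 4 mitochondrial DNA transcription factors 2.57-fold. A narrow range was thus not particular to the family. These lists were not cut at the filter. Of the 80 cytosolic ribosomal protein genes 76 passed it, and of the 78 oxidative phosphorylation genes 77. Copies elsewhere in the genome, given below for members, were not sought for these lists. Of the members, 61 lay between 5 and 30 RPKM.

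The highest member was *Mrps2*, whose product has a bacterial counterpart in the small subunit, with 43.1, 43.2, 44.1, 43.5, 37.7 and 38.3 RPKM in libraries 1 to 6. It was followed by *Mrpl18* (33.3 ± 4.36 RPKM, SD, n = 6), *Mrpl12*, the ribosomal stalk protein (32.7 ± 7.51), *Mrpl20* (32.5 ± 4.27) and *Mrpl34* (31.9 ± 7.07). These 4 did not differ from each other beyond their spread, while *Mrps2* exceeded *Mrpl18* by more than the SD of either. At the low end, *Mrps18c* stood at 2.19 ± 1.42 RPKM, *Mrpl52* at 2.08 ± 0.607, *Mrps36* at 1.77 ± 0.938, *Mrpl48* at 1.23 ± 0.710 and *Mrpl23* at 0.591 ± 0.597 (SD, n = 6), and each differed from its neighbours in this order by less than the larger of their SDs. *Mrps36* encodes a protein first assigned to the mitochondrial ribosome and later described as part of the oxoglutarate dehydrogenase complex. *Mrpl23*, a protein of the peptide exit tunnel, was listed at 0 in libraries 1 and 3 and rested on 7 reads in all 6 libraries together.

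**Figure D1:**
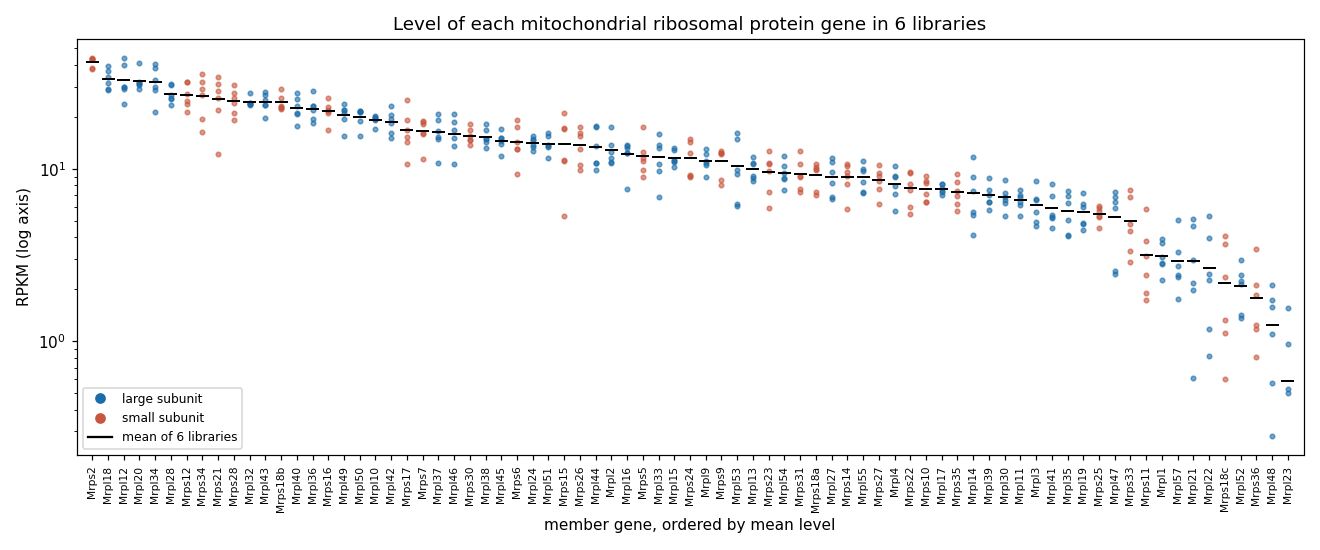
Level of each of the 77 members, ordered by mean; points are the 6 libraries in RPKM on a log axis, blue for the large and red for the small subunit, and bars are means of the 6 libraries. Most members sit between 5 and 30 RPKM and the spread between libraries widens below 5 RPKM; the values of Mrpl23 at 0 in libraries 1 and 3 cannot be drawn on a log axis.

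The 3 members that share the number 18 and differ in their last letter are paralogues of 1 bacterial small subunit protein. They did not share a level. *Mrps18b* stood at 22.7, 25.7, 22.2, 29.0, 23.3 and 22.5 RPKM in libraries 1 to 6. *Mrps18a*, whose product is placed in the large subunit despite its symbol, stood at 9.98, 9.79, 10.3, 7.35, 7.09 and 10.7 RPKM. *Mrps18c* stood at 1.32, 4.07, 2.36, 0.603, 3.66 and 1.11 RPKM, below the other 2 in every library.

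Members with similar copies elsewhere in the genome had a lower median level, and only reads assigned to a single gene had been kept by the authors. When annotated transcripts of 76 members were aligned to the mm9 genome, 25 had another locus of at least 90% identity over at least 200 bases. The best match covered 34.1% of the transcript in *Mrps25* and 100% in *Mrpl27*, so some copies are partial. The median level was 8.94 RPKM for these 25 members and 11.7 RPKM for the others. Of the 10 lowest members 6 had such a copy, among them *Mrpl23* with 100% identity and *Mrps36* with 99.7%. *Mrpl21* (97.2%), *Mrpl22* (97.5%), *Mrpl48* (98.5%), *Mrps21* (98.2%) and *Mrps18c* (94.7%) also had one, so their levels are uncertain. High members had copies too, among them *Mrpl18* (96.0%), *Mrpl12* (95.7%), *Mrpl20* (91.1%) and *Mrps18b* (99.9%), and the same holds for their levels. How far lost reads set these levels was not tested.

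Member levels varied a little less between libraries than those of the median gene. The coefficient of variation over the 6 libraries had a median of 19.2% for members and 21.5% for all genes tested. For the 57 members with a mean of at least 20 reads, the variance of the reads was a median of 1.63 times that of counting error alone, and 14 of them lay above 2.43, the median of 7647 genes with the same minimum. It was highest for *Mrps15* (7.61), followed by *Mrps34* (5.85), *Mrps17* (5.80) and *Mrpl12* (5.39). Neither comparison with other genes was matched for level or number of reads.

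Summed over the family, libraries 1 to 6 held 1112, 982, 1072, 1032, 925 and 1060 RPKM, or 0.792%, 0.736%, 0.802%, 0.756%, 0.732% and 0.780% of the RPKM of the library. The lowest sums were those of libraries 2 and 5, the pair with the word Ring1BKD. RPKM summed over all genes was also lowest in these libraries, at 133475 and 126356. Relative to the mean of the 6 libraries, the median member deviated by 0.11, -0.02, 0.05, -0.01, -0.09 and 0.01 on the log2(RPKM + 1) scale, and the median of all genes tested by 0.06, -0.00, -0.01, 0.02, -0.08 and 0.02. Both medians were highest in library 1 and lowest in library 5. The sum of the large subunit was 1.60, 1.65, 1.61, 1.55, 1.45 and 1.51 times that of the small subunit, with all 3 ratios of libraries 4 to 6 below those of libraries 1 to 3. Subunits go by symbol here, so *Mrps18a* and *Mrps36*, for example, count as small. In bulk RNA, fewer cells of a type and less RNA per cell cannot be told apart.

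**Figure D2:**
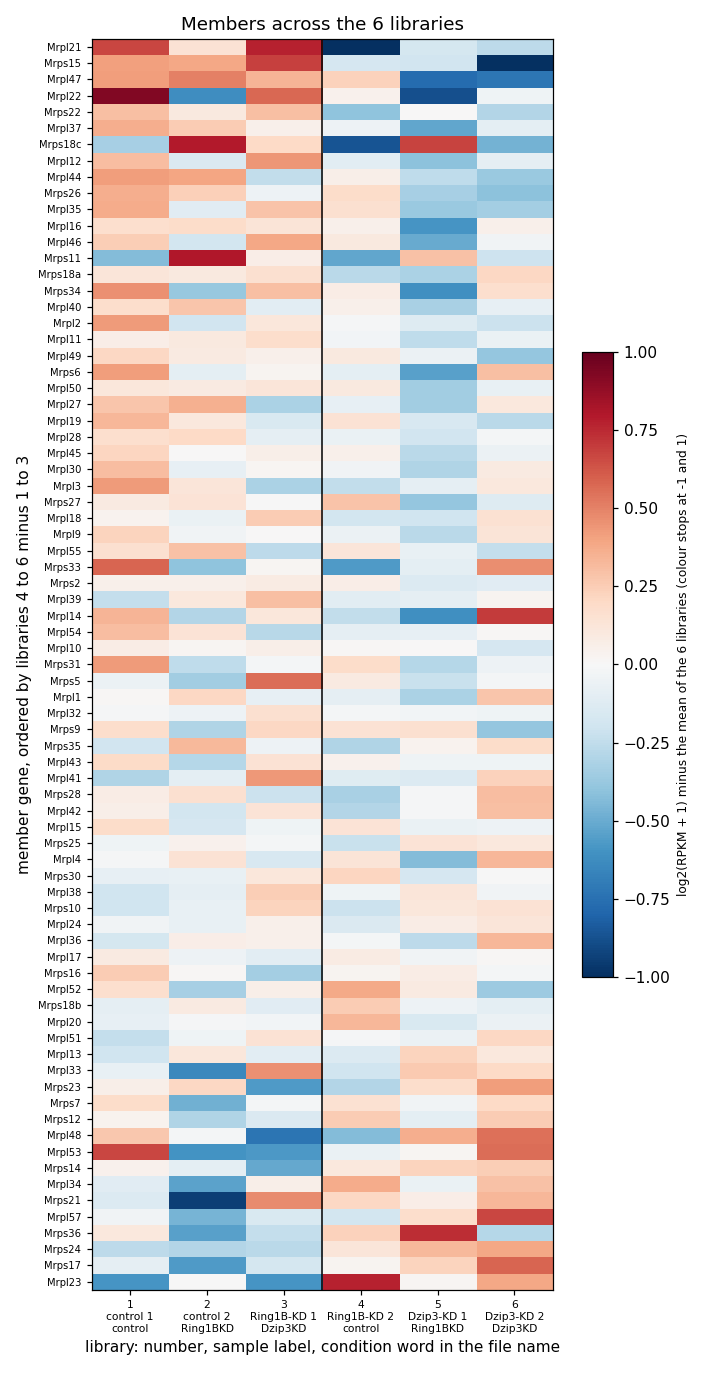
Each row is a member, ordered by the difference between libraries 4 to 6 and libraries 1 to 3, and each column a library with its number, label and file word; colour is log2(RPKM + 1) minus the mean of the 6 libraries for that member, with the scale stopped at -1 and 1. Most rows are pale, whereas Mrpl21 and Mrps15 at the top and Mrps24 at the bottom change colour at the line between library 3 and library 4, and Mrpl47 changes between library 4 and library 5.

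The promoters of members on which the comparisons below turn are shown next, because they include the members that moved between libraries and 2 that carry motifs common in this family. The windows are those of RefSeq on GRCm38.p6, from 250 bases before to 50 bases after the start of transcription, and capitals mark a match to 1 of 3 motifs searched on both strands: NRF1 (GCGC, any base, TGCGC), ETS (CCGGAAG) and YY1 (AA, any base, ATGGCGG). *Mrpl47* is shown at chr3:32736706-32737005 (minus strand), *Mrps24* at chr11:5707652-5707951 (minus), *Mrps15* at chr4:126046678-126046977 (plus), *Mrpl21* at chr19:3282792-3283091 (plus) and *Mrpl44* at chr1:79775768-79776067 (plus).
Mrpl47: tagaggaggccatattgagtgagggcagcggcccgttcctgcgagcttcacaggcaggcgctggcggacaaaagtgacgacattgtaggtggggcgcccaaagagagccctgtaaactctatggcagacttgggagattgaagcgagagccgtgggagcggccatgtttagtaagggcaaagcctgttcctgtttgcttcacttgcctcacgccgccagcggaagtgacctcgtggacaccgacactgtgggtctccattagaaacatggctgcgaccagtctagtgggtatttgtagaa
Mrps24: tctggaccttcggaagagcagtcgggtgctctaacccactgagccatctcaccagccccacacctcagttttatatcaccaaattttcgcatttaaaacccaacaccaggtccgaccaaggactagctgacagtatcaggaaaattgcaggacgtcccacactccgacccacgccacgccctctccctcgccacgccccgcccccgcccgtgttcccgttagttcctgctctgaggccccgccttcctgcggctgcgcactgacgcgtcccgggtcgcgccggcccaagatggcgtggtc
Mrps15: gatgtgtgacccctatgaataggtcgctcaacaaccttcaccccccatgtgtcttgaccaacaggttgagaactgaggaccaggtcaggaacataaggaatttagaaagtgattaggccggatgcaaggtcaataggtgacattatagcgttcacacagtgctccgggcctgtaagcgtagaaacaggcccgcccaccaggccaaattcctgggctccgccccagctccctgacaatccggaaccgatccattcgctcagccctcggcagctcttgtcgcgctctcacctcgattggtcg
Mrpl21: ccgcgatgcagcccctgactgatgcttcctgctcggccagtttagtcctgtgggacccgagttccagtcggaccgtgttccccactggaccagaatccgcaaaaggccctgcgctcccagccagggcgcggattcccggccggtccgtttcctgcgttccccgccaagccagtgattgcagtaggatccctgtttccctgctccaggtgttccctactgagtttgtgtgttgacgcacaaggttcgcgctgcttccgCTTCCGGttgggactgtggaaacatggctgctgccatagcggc
Mrpl44: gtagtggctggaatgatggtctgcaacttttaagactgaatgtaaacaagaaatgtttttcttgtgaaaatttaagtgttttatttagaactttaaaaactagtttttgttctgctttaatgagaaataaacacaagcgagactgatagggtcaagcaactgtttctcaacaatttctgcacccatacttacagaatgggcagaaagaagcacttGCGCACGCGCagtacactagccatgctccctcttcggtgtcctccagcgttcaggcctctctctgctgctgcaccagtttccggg

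The window of *Mrpl21* held the ETS letters and that of *Mrpl44* the NRF1 letters, and those of *Mrpl47*, *Mrps24* and *Mrps15* held no match to these 3 motifs. A RefSeq window was found for 68 members. The NRF1 letters were present in 13 of them (19.1%, against 5.19% of 27025 genes with a window), the ETS letters in 25 (36.8%, against 9.93%) and the YY1 letters in 7 (10.3%, against 1.59%). At least 1 motif was present in 38 members (55.9%) and in 15.0% of all genes. Shares for cytosolic ribosomal protein genes were 8.47%, 40.7% and 5.08% in the same order (n = 59), and for oxidative phosphorylation subunits 26.6%, 25.0% and 9.38% (n = 64). A match is a description of letters and not of binding.

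By label, 0 members passed the test, and *Mrpl47* was the member farthest from the family median in Dzip3-KD against control. In limma fits on log2(RPKM + 1), 0 members passed an adjusted p of 0.05 for Ring1B-KD against control, where 0% of all genes did. At an unadjusted p under 0.05 there were 8 members (10.4%, 3 up and 5 down), against 5.1% of genes. For Dzip3-KD against control 0 members passed, again with 0% of genes, and 10 had an unadjusted p under 0.05 (13.0%, 4 up and 6 down), against 12.2%. For Dzip3-KD against Ring1B-KD 0 members passed, with 0% of genes, and 8 had an unadjusted p under 0.05 (10.4%, 4 up and 4 down), against 4.63%. No member passed in any of these comparisons with unmoderated variances or with voom on recovered reads. The family median differed by -0.02, -0.08 and -0.09 (log2) in the 3 comparisons and the median of all genes by -0.02, -0.07 and -0.03. These comparisons share libraries with each other and are not independent.

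**Figure D3:**
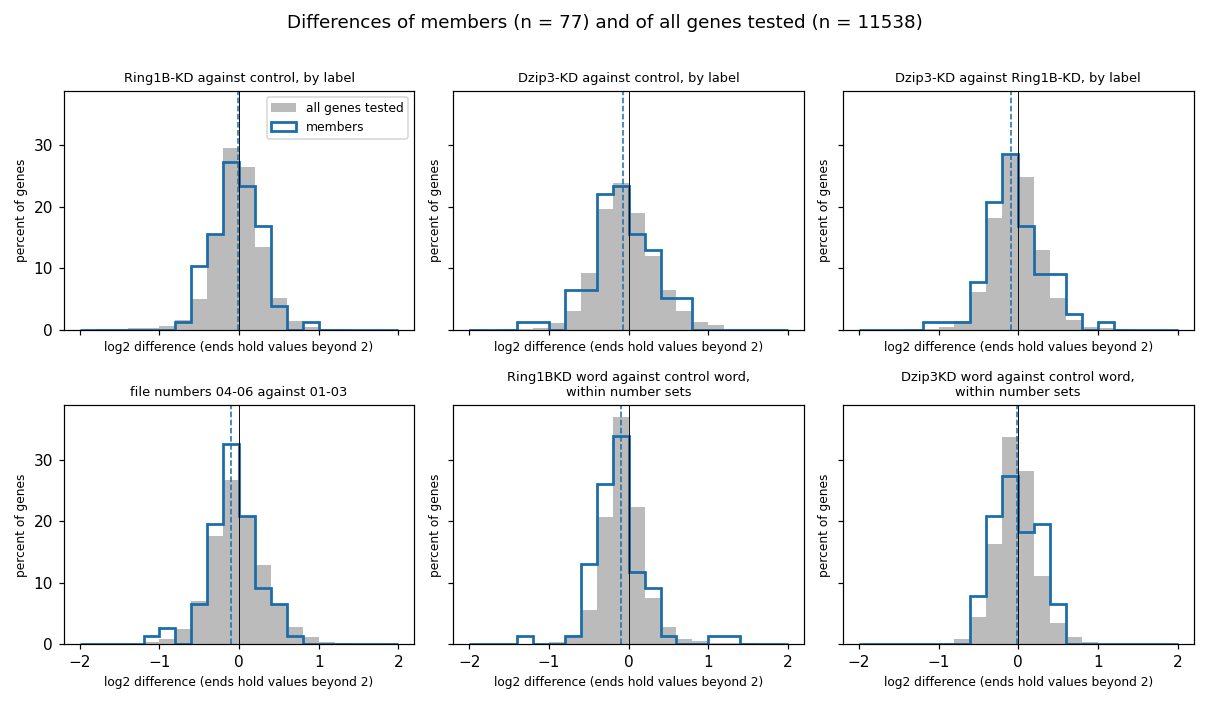
Distribution of log2 differences of the 77 members (blue outline) and of all 11538 genes tested (grey), as percent of genes per bin, for the 3 comparisons by label and the 3 by file number or file word; the dashed line is the family median and the solid line 0. The outlines follow the grey distributions, and single members lie far out, such as Mrpl47 at -1.21 in Dzip3-KD against control.

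*Mrpl47* encodes a large subunit protein whose bacterial counterpart sits at the peptide exit tunnel. It was singled out with earlier results of these data known, so its values are a description. Its level was 6.85, 7.36, 6.46, 5.90, 2.46 and 2.56 RPKM in libraries 1 to 6, from 18, 22, 19, 17, 7 and 8 reads. The libraries labelled Dzip3-KD were low, and the other 4 lay close together well above them. Group means were 7.10 ± 0.360 RPKM for control, 6.18 ± 0.396 for Ring1B-KD and 2.51 ± 0.0727 for Dzip3-KD (SD, n = 2). The difference was -1.21 (log2, SE 0.19) for Dzip3-KD against control and -1.03 (SE 0.19) for Dzip3-KD against Ring1B-KD. In limma the adjusted p were 0.254 and 0.864, and they ranged from 0.055 to 0.829 and from 0.086 to 0.999 over the alternatives. For Ring1B-KD against control the difference was -0.17 (adjusted p = 0.942 in limma). Since both libraries with the label control belong to one number set and both with the label Dzip3-KD to the other, label and set are told apart only through the libraries labelled Ring1B-KD. With the set as a block, Dzip3-KD against control gave -1.09 (adjusted p = 0.829 in limma).

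The gene lies on the minus strand of mm9 at chr3:32624319-32636069 and is flanked by *Actl6a*, a subunit of chromatin remodelling complexes, and by *Ndufb5*, a subunit of respiratory complex I. Both neighbours are on the plus strand and overlap it, *Actl6a* by 1572 bases and *Ndufb5* by 158 bases. The starts of *Mrpl47* and *Ndufb5* lie 308 bp apart on GRCm38.p6, head to head, and their promoter windows share 193 of 300 bases. *Ndufb5* stood at 19.6, 13.1, 13.1, 15.4, 15.6 and 20.9 RPKM, so the libraries in which *Mrpl47* was low were not low for it (log2 difference of Dzip3-KD against control 0.16, adjusted p = 0.783 in limma). *Actl6a* stood at 18.2, 13.0, 13.5, 12.9, 8.86 and 12.8 RPKM, lowest in library 5 (log2 difference -0.49, adjusted p = 0.421). The libraries were made with a stranded kit, but whether the authors counted reads by strand is not given in the sources used here.

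Other members with the smallest p by label showed smaller or noisier differences, and 0 of them passed. *Mrpl44*, which has a ribonuclease III-like fold, stood at 17.7, 17.4, 10.8, 13.6, 10.7 and 9.80 RPKM in libraries 1 to 6. *Mrps26*, a small subunit protein specific to mitochondria, stood at 17.6, 16.1, 12.9, 15.4, 10.5 and 9.86 RPKM. In both genes the libraries labelled control were highest and those labelled Dzip3-KD lowest, without overlap of these 2 groups. Both genes were picked by their p in Dzip3-KD against control, so this separation describes the choice and is not a separate result. The 2 groups also lie in different number sets, between which *Mrpl44* differed by -0.38 and *Mrps26* by -0.37 (log2). Dzip3-KD against control gave -0.72 (SE 0.18, adjusted p = 0.3005) for *Mrpl44* and -0.67 (SE 0.18, adjusted p = 0.302) for *Mrps26* in limma. The same comparison gave -1.05 for *Mrps15*, 0.73 for *Mrps17* and 0.63 for *Mrps24* (adjusted p = 0.322, 0.319 and 0.319 in limma). These members are described below by number set.

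*Mrps21* stood at 22.0, 12.2, 34.2, 28.2, 25.6 and 30.9 RPKM, lowest in both libraries labelled control, and differed by 0.88 for Ring1B-KD against control (SE 0.26, adjusted p = 0.902 in limma), by 0.48 without library 2 and by 1.28 without library 1. *Mrps23* stood at 9.69, 10.8, 5.96, 7.37, 10.6 and 12.7 RPKM, lowest in both libraries labelled Ring1B-KD. It differed by -0.56 for Ring1B-KD against control and by 0.73 for Dzip3-KD against Ring1B-KD (adjusted p = 0.902 and 0.864 in limma). *Mrpl48* was lowest in the same libraries, at 1.57, 1.11, 0.281, 0.575, 1.74 and 2.12 RPKM, which came from 5, 4, 1, 2, 6 and 8 reads. Its differences of -0.71 and 1.04 (adjusted p = 0.902 and 0.864 in limma) rest on those few reads.

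Between the number sets single members moved, while the family as a whole shifted little. In limma with the file word as a term, 3 members (3.90%) passed an adjusted p of 0.05 for libraries 4 to 6 against 1 to 3, 1 up and 2 down, against 7.62% of all genes (455 up and 424 down). At an unadjusted p under 0.05 there were 18 members (23.4%, 6 up and 12 down), against 26.5% of genes. The family median was -0.10 and that of all genes -0.04 (log2), and 48 members were below 0 (62.3%, against 55.3% of genes). Between the sets members were less dispersed around their median than all genes, with scaled median absolute deviations of 0.20 and 0.31. That was not so by label, with 0.30, 0.33 and 0.29 for members and 0.26, 0.33 and 0.27 for all genes. Nor was it so by the words Ring1BKD and Dzip3KD, with 0.27 and 0.29 against 0.21 and 0.22. Libraries 4 to 6 lay wholly below libraries 1 to 3 for 8 members (10.4%, against 15.5% of genes) and wholly above for 4 (5.19%, against 13.1%). Each set mixes labels and words, so the SDs below span these too. The 8 were *Mrpl10*, *Mrpl11*, *Mrpl16*, *Mrpl21*, *Mrpl37*, *Mrpl47*, *Mrps15* and *Mrps22*, and the 4 were *Mrpl23*, *Mrps14*, *Mrps17* and *Mrps24*.

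*Mrps24*, a small subunit protein with a bacterial counterpart, was the member that rose. It stood at 9.22, 8.97, 9.12, 12.3, 14.3 and 15.0 RPKM in libraries 1 to 6, from 28, 31, 31, 41, 47 and 54 reads. The first 3 libraries were nearly equal and all of the second 3 were higher. Means were 9.11 ± 0.124 and 13.9 ± 1.37 RPKM (SD, n = 3), a difference of 0.55 (log2, SE 0.12, adjusted p = 0.0361 in limma). It did not pass when any 1 of the 6 libraries was left out (0.50 to 0.64, adjusted p = 0.0668 to 0.144 in limma). The gene at mm9 chr11:5603986-5615683 (minus) overlaps *Urgcp* on the same strand by 2264 bases, and *Urgcp* stood at 0.581 to 1.64 RPKM (log2 difference 0.24, adjusted p = 0.525), so reads of the shared stretch are uncertain.

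*Mrps15* and *Mrpl21* were the members that fell. *Mrps15*, an rRNA-binding protein of the small subunit at mm9 chr4:125724169-125732776 (plus), stood at 17.3, 17.1, 21.2, 11.3, 11.1 and 5.35 RPKM, from 49, 55, 67, 35, 34 and 18 reads. Both sets were separated, and library 6 was the lowest by far. Means were 18.5 ± 2.29 and 9.25 ± 3.37 RPKM (SD, n = 3), a difference of -0.99 (SE 0.23, adjusted p = 0.0421 in limma). Without library 3 or without library 6, which share the word Dzip3KD, the difference was -0.58, with an adjusted p of 0.0533 and 0.0456 in limma. *Mrpl21*, a large subunit protein at mm9 chr19:3282901-3292837 (plus), stood at 4.68, 2.94, 5.08, 0.610, 2.16 and 1.97 RPKM, from 14, 10, 17, 2, 7 and 7 reads. Library 4 was lowest, and the sets did not overlap. Means were 4.23 ± 1.14 and 1.58 ± 0.845 RPKM (SD, n = 3), a difference of -1.06 (SE 0.26, adjusted p = 0.0498 in limma). It did not pass without library 1, 3, 4 or 6 (adjusted p = 0.122 to 0.133 in limma). Without library 1 or without library 4, which share the word control, the difference was -0.68.

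Another 3 members stood over 3 scaled median absolute deviations from the family median without passing the adjusted threshold. *Mrpl47* differed by -0.84 between the sets (SE 0.21, adjusted p = 0.0525 in limma), with means of 6.89 ± 0.450 and 3.64 ± 1.96 RPKM (SD, n = 3). In library 4, the library labelled Ring1B-KD 2, it was close to the first set, so its difference comes from libraries 5 and 6. Without library 1 or without library 4 the difference was -1.17 and passed (adjusted p = 0.00756 and 0.00715 in limma).

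*Mrps17*, a small subunit protein with a bacterial counterpart, stood at 15.3, 10.7, 14.4, 16.7, 19.2 and 25.0 RPKM, from 44 to 107 reads. All of libraries 4 to 6 were above libraries 1 to 3, with means of 20.3 ± 4.24 and 13.4 ± 2.40 RPKM (SD, n = 3). The difference was 0.55 (SE 0.15, adjusted p = 0.069 in limma), and it passed without library 1 or without library 4 (0.77, adjusted p = 0.0286 and 0.0297 in limma). *Mrpl23* stood at 0, 0.501, 0, 1.56, 0.526 and 0.959 RPKM, from 0, 1, 0, 3, 1 and 2 reads, so its difference of 0.78 (adjusted p = 0.107 in limma) rests on 7 reads. It was 0.50 without library 1 or 4 and 1.16 without library 2 or 5, and passed without either of the latter (adjusted p = 0.0431 and 0.0450 in limma).

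The libraries labelled Ring1B-KD give the step between the sets within 1 label, with 1 library on each side and so no test. Their words differ, Dzip3KD for library 3 and control for library 4. From library 3 to library 4 *Mrps24* went from 9.12 to 12.3 RPKM, *Mrps15* from 21.2 to 11.3, *Mrpl21* from 5.08 to 0.610 and *Mrps17* from 14.4 to 16.7. All of these are among the members whose sets did not overlap, so the direction of their step was fixed in advance. *Mrpl47* went from 6.46 to 5.90 RPKM, and stayed well above the 2.46 and 2.56 RPKM of libraries 5 and 6. Of all members 46 (59.7%) were lower in library 4, against 47.6% of all genes, with medians of -0.06 and 0.02 (log2). Of the 6 members over 3 scaled median absolute deviations, only *Mrpl21* had a promoter match to any of the 3 motifs.

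**Figure D4:**
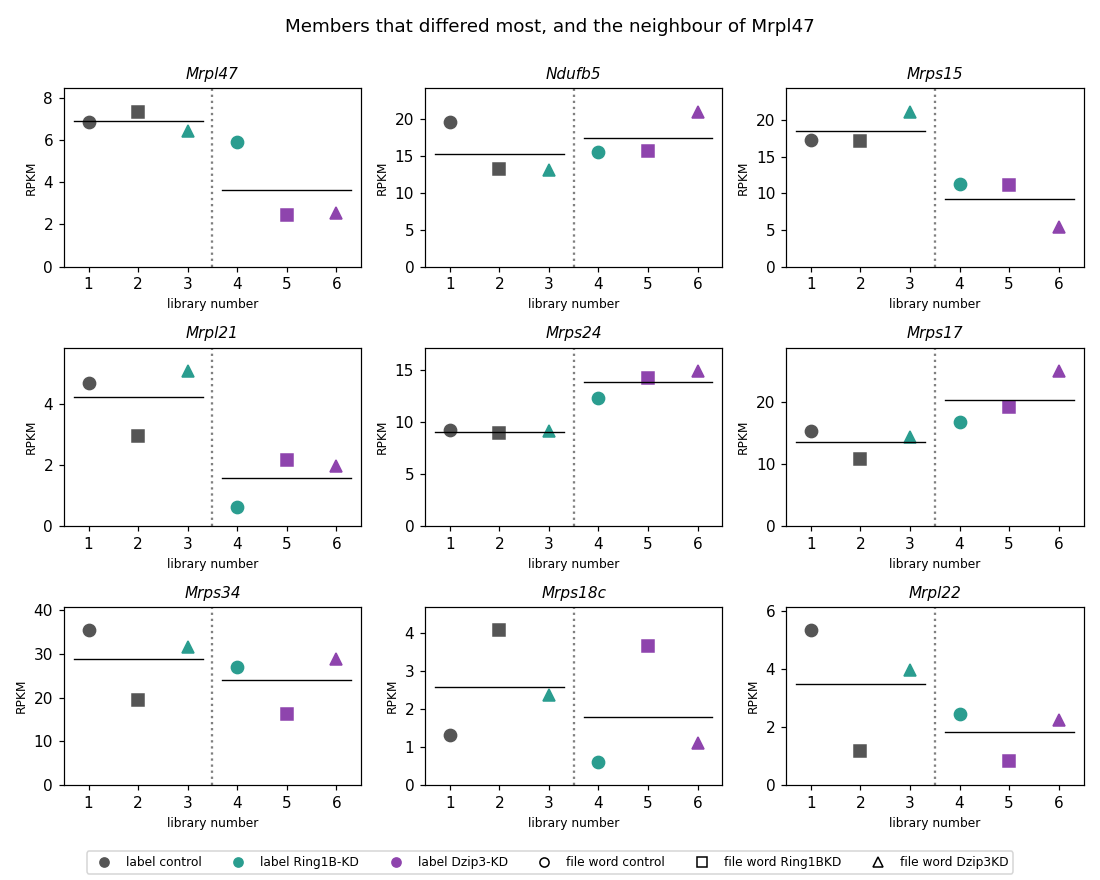
RPKM of 8 members and of Ndufb5 in libraries 1 to 6; colour gives the sample label, shape the condition word of the file, the dotted line divides the number sets and each horizontal line is the mean of 3 libraries. Mrpl47 is low in libraries 5 and 6 only, Ndufb5 is not, Mrps24 steps up and Mrps15 and Mrpl21 step down at the line, and Mrps34, Mrps18c and Mrpl22 follow the square symbols.

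By the condition word, with the number set as a term, 0 members passed an adjusted p of 0.05 in limma for Ring1BKD against control, where 0.416% of all genes did (48, all up). At an unadjusted p under 0.05 there were 13 members (16.9%, 3 up and 10 down), against 8.31% of genes, and 0 members passed with voom on recovered reads. The family median was -0.10 and that of all genes -0.08 (log2), and 58 members were below 0 (75.3%, against 65.1% of genes). Within the sets, the library with the word Ring1BKD differed from the library with the word control by a family median of -0.11 in the first set and -0.14 in the second (log2), beside all-gene medians of -0.06 and -0.11. In both sets 32 members were lower (41.6%, against 40.6% of genes) and 10 were higher (13.0%, against 18.5%).

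The 3 members with the smallest p in that comparison followed the word in both sets. They were picked by that p from the same libraries, so this agreement is a description of the choice and not a separate result. *Mrps34*, a small subunit protein specific to mitochondria, stood at 35.5, 19.5, 31.7, 27.0, 16.4 and 28.9 RPKM in libraries 1 to 6, from 96, 60, 96, 80, 48 and 93 reads. Libraries 2 and 5, labelled control 2 and Dzip3-KD 1, were the lowest and did not overlap the other 4. The difference from the word control was -0.76 (SE 0.14, adjusted p = 0.0773 in limma), with means of 17.9 ± 2.20 against 31.2 ± 6.01 RPKM (SD, n = 2). It passed without library 3 or without library 6 (adjusted p = 0.0464 and 0.0453 in limma). *Mrps34* at mm9 chr17:25032061-25034447 (plus) lies wholly within *Mapk8ip3* on the other strand and overlaps *Nme3* on its own strand by 1003 bases, and the 2 stood at 2.14 to 2.64 and 3.63 to 7.54 RPKM.

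*Mrpl22*, a protein of the exit tunnel, was also lowest in libraries 2 and 5, at 5.35, 1.18, 3.98, 2.44, 0.823 and 2.25 RPKM from 12, 3, 10, 6, 2 and 6 reads. It differed by -1.23 (SE 0.22, adjusted p = 0.0736 in limma) and passed without library 4 (-1.45, adjusted p = 0.0483). *Mrps18c* was highest in the same libraries, at 1.32, 4.07, 2.36, 0.603, 3.66 and 1.11 RPKM from 2, 7, 4, 1, 6 and 2 reads. It differed by 1.33 (SE 0.22, adjusted p = 0.0552 in limma) and passed with a filter at 2 RPKM or with 75th percentile scaling (adjusted p = 0.0404 and 0.0473 in limma). Both have copies elsewhere in the genome, of 97.5% identity for *Mrpl22* and 94.7% for *Mrps18c*, and a few reads decide both values. *Mrpl47* differed by -0.45 (adjusted p = 0.665 in limma), with 7.36 and 2.46 RPKM in the 2 libraries of the word.

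For the word Dzip3KD against control, 0 members passed in limma or with voom on recovered reads, where 0% of all genes passed in limma, and 6 had an unadjusted p under 0.05 (7.79%, 2 up and 4 down), against 6.52%. The family median was -0.02 and that of all genes -0.03 (log2). Within the sets the family median was -0.08 in the first and 0.05 in the second, and the all-gene median -0.06 and -0.0011. In both sets 23 members were lower (29.9%, against 29.5% of genes) and 19 higher (24.7%, against 22.3%). The smallest p belonged to *Mrpl44* (-0.55), *Mrps26* (-0.50) and *Mrpl41* (0.55), each with an adjusted p of 0.754 in limma. *Mrpl41*, a large subunit protein specific to mitochondria, stood at 4.52, 5.37, 8.20, 5.24, 5.18 and 6.99 RPKM and was highest in libraries 3 and 6, labelled Ring1B-KD 1 and Dzip3-KD 2. *Mrpl47* differed by -0.51 (adjusted p = 0.754 in limma), by -0.022 without library 4 and by -1.01 without library 1.

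A further 7 lists covered mitochondrial translation and its partners, with 224 genes tested and not in the family. In the 3 label and 2 word comparisons 0 of them passed in limma, and 15 to 28 had an unadjusted p under 0.05. By label these were 20 (8.93%, against 5.1% of all genes) for Ring1B-KD against control and 15 (6.70%, against 4.63%) for Dzip3-KD against Ring1B-KD. For Dzip3-KD against control there were 28, a share just above the 12.2% of all genes. By word, against control, the shares were 7.14% for Ring1BKD (all genes 8.31%) and 10.7% for Dzip3KD (all genes 6.52%). Whether such shares differ from those of all genes was not tested. Between the number sets 11 passed (4.91%, against 7.62% of all genes) and 57 had an unadjusted p under 0.05 (25.4%, against 26.5%), so neither share exceeded that of all genes, and those named here were chosen after their values were seen. Of 6 mitoribosomal proteins with other symbols 0 passed in limma and 1 had an unadjusted p under 0.05 (median -0.00). Of 25 assembly factors and rRNA modifiers 1 fell (4.0%, median -0.17), the RNA helicase gene *Ddx28* (-0.50, SE 0.12, adjusted p = 0.0496). Of 22 aminoacyl-tRNA synthetases 1 rose and 2 fell (13.6%, median -0.04). *Yars2*, for mitochondrial tyrosine tRNA, rose by 0.70 (SE 0.17, adjusted p = 0.0476). *Gars* and *Kars*, which serve the cytosol as well, fell by 0.93 (SE 0.11, adjusted p = 0.0069) and 0.50 (SE 0.12, adjusted p = 0.0415), all in limma. Of 14 translation factors (median -0.07) and 4 mitochondrial DNA transcription factors (median -0.17) 0 passed in limma, with 3 and 1 at an unadjusted p under 0.05.

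Cytosolic ribosomal protein genes, the counterpart of the family outside the organelle, had 1 gene up and 3 down of 76 tested between the sets (5.26%, against 7.62% of all genes, median -0.03). Oxidative phosphorylation subunits, the nuclear partners of the proteins that mitochondrial ribosomes make, had 2 up and 1 down of 77 (3.90%, against the same 7.62%, median -0.00). *Cox6a1* and *Ndufa1*, subunits of complexes IV and I, rose by 0.67 and 0.49, and *Atp5g1*, of ATP synthase, fell by 0.68 (adjusted p = 0.0147 to 0.0382 in limma). For the word Ring1BKD against control the medians were -0.17 and -0.14, beside -0.10 for the family and -0.08 for all genes (log2). Differences between the lists were not tested.

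**Figure D5:**
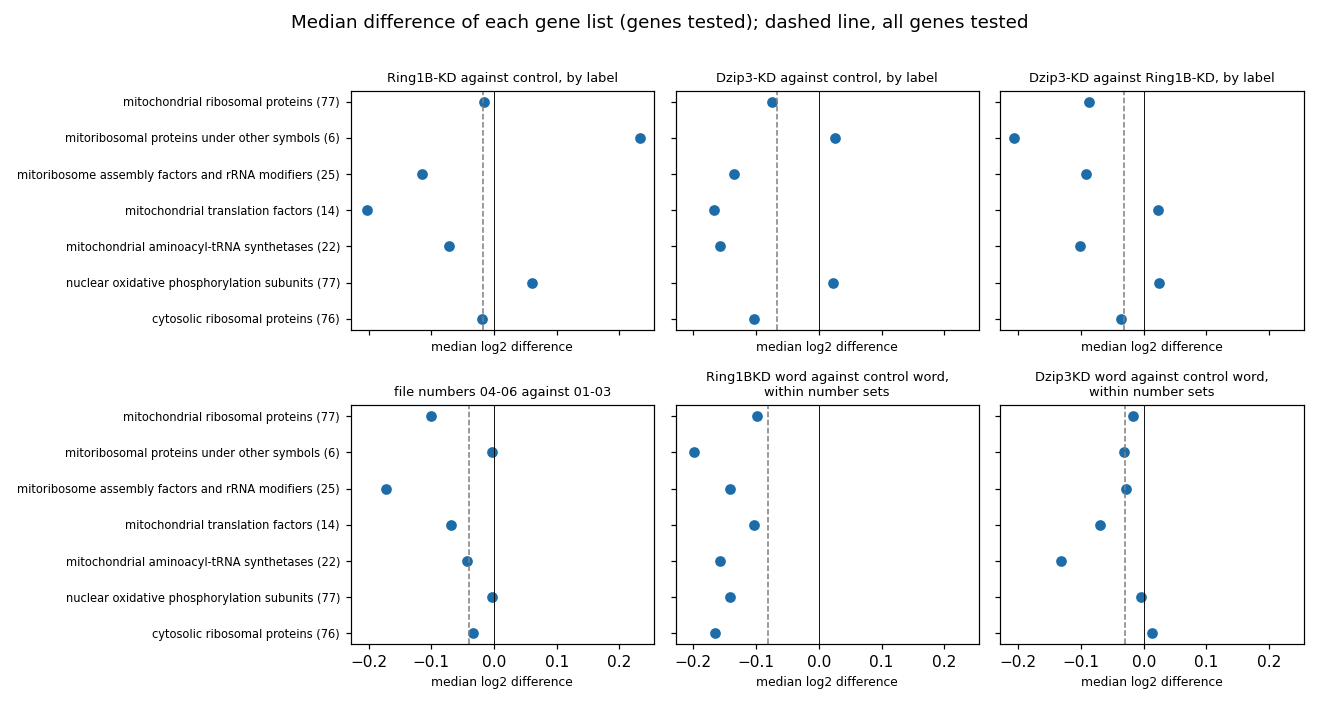
Median log2 difference of each gene list (number of genes tested in brackets) in the 3 comparisons by label and the 3 by file number or word; the dashed line is the median of all genes tested and the solid line 0. The family lies at most 0.06 from the all-gene line in every panel, and the widest departures belong to lists with few genes.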

How the data were processed

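Stranded mRNA libraries of E14 cells were sequenced on a MiSeq by the authors and aligned to the mouse genome mm9 with the Illumina Analysis Pipeline. The authors deposited RPKM values, 1 list per library, from reads assigned uniquely to a gene. They name the Partek Genomics Suite for sequence analysis, and its version and the gene annotation are not given in the sources used here. RPKM does not correct for a change in RNA composition. A further 457 values between 0 and 0.001 RPKM are less than 1 read could give.

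Groups were taken from the sample labels, and file numbers and file words were used as separate groupings of the same 6 libraries. Comparisons used limma 3.58.1 (R 4.3.3) with a variance trend on log2(RPKM + 1), for 11538 genes averaging 0.5 RPKM or more, with Benjamini-Hochberg adjustment over all of them. Label contrasts came from 1 fit to 6 libraries without covariates. Contrasts of number set and word came from 1 additive fit of both. Fold changes on this scale understate those of low genes.

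Whole reads were recovered from the RPKM steps for 15449 genes (92.7%), 71 of them members (tolerance 0.0005 reads), against 0% of 2000 genes after random factors with an SD of 5%. They cover counting error only. Copies were sought with minimap2 2.31 on mm9. Positions come from GENCODE M1, promoters from RefSeq on GRCm38.p6.

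The members, gene lists and named genes were chosen with earlier results of these data known. Named are Mrpl47 and its neighbours, the 3 members with the smallest p per comparison, members over 3 scaled median absolute deviations from the family median between number sets or labels, the 5 highest and 5 lowest members and the members with letters. Alternatives were a pseudocount of 0.1, no filter or one at 2 RPKM, 75th percentile and quantile scaling, unmoderated variances, voom on recovered reads, blocks, other terms or libraries in the fit, and leaving out each library.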

Additional observations from a re-analysis of the deposited data

How the results depend on the processing

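The label comparisons gave 0 members under every alternative run. Over all genes, Dzip3-KD against control (0 called) gave 24 with the 4 libraries compared alone and 0 to 27 with 1 library left out. Same-numbered libraries did not deviate together within labels (correlations of -0.04, -0.24 and 0.04). The libraries of each label carry different words, which enter these deviations, so whether the replicate numbers pair libraries cannot be told from them. With the replicate block Dzip3-KD against control gave 1 gene, with crossed numbers, chosen after seeing the data, 0, and the other label comparisons 0. The family median of Dzip3-KD against control turned from -0.08 to 0.0041 with quantile normalization and was -0.18 to -0.011 with 1 library left out. That range was -0.11 to 0.025 for Ring1B-KD against control and -0.14 to -0.011 for Dzip3-KD against Ring1B-KD.

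Between the number sets (879 genes, 3 members), 0 genes and 0 members were called without a filter or without moderation, and 1708 genes and 4 members with voom on recovered reads. With 1 library left out, 351 to 509 genes and 1 to 4 members were called. The members called were 1 with a pseudocount of 0.1, 1 with 75th percentile scaling and 1 with quantile normalization. A fit without 1 library takes the set difference from the 4 libraries of the other words alone.

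For the word Ring1BKD (48 genes, 0 members), 21 genes were called with a pseudocount of 0.1, 0 without a filter, without moderation or with the number set left out, 80 with voom on recovered reads and 3 to 61 with 1 library left out. Members called were 1 with a filter at 2 RPKM, 1 with 75th percentile scaling and 0 to 2 with 1 library left out. The family median was -0.025 with quantile normalization, and Mrpl47 (-0.45) turned to 0.039 without Ring1B-KD replicate 2, with a range of -0.95 to 0.039 with 1 library left out. For the word Dzip3KD (0 genes), 4 were called with voom and 0 to 4 with 1 library left out, and the family median was -0.095 to 0.033. Apart from fewer libraries or more genes tested, the cause was not tested. An arm left with 1 library was assumed to vary like the others. Depth limits most the 7 members that averaged under 10 reads per library.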
